A study of Mus musculus with 6 samples.

Results

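The genes described here encode the enzymes and transporters of fatty acid oxidation and ketone body production, together with a few targets of the nuclear receptor PPAR-alpha. They are 40 genes chosen by name for their function, covering mitochondrial and peroxisomal beta-oxidation, ketogenesis and PPAR-alpha targets. All 40 were found in the deposited count table of 54532 genes, and all 40 passed the filter on low counts. The table came from RNA sequencing of whole mouse liver, with 3 control mice and 3 knockout mice on the C57BL/6J/Rj background. Controls were LysM+/+ Cd44flox/flox littermates, so they carried the floxed Cd44 alleles without Cre (the labels call them WT). Knockouts were LysMcre/+ Cd44flox/flox, in which Cre is driven by the myeloid lysozyme promoter and Cd44 encodes a hyaluronan receptor. All mice of both groups were fed a Lieber-DeCarli liquid diet containing ethanol (6% vol/vol) over 10 days. A gavage of ethanol at 5 g/kg followed on day 11, and livers were taken 9 hours after it. No source used here gives age or sex. Ethanol-free mice and mice carrying Cre without floxed Cd44 were not analysed here, so Cre itself and the loss of Cd44 cannot be told apart.

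Long-chain fatty acids enter mitochondria through the carnitine shuttle and are shortened in a spiral of dehydrogenation, hydration, a second dehydrogenation and thiolysis. Very long and branched chains are shortened first in peroxisomes. In the liver much of the resulting acetyl-CoA is turned into ketone bodies for other tissues, and PPAR-alpha, the fatty acid sensor of hepatocytes, switches on many of these genes in fasting. Ethanol oxidation is known to slow mitochondrial fatty acid oxidation, and fat accumulates in the liver after heavy drinking.

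These 40 genes did not move as a block in the knockout livers. Of 51 other fatty acid oxidation genes tested, 23 rose and 3 fell. Of the 40 genes, 9 rose, 3 fell and 28 did not pass the test (edgeR quasi-likelihood test, Benjamini-Hochberg adjusted p under 0.05 over all 14758 genes tested). Among all genes tested 25% passed, 11.9% higher and 13.1% lower, so the 30% of members that passed lay near the background. The share that rose, 22.5%, compares with 18.6% of the 5205 tested genes that were at least as abundant as the least abundant member. The genes with the largest changes were not the enzymes of the spiral but the thioesterases Acot3 (6.93-fold higher), Acot4 (2.73-fold higher) and Acot2 (2.43-fold lower), and Pdk4 (5.78-fold lower), a kinase that shuts off pyruvate dehydrogenase. The 31 members with a positive log2 fold change and the 9 with a negative one gave a median of 0.17, against −0.01 over all genes tested. Members that rose numbered 3 without control liver 2, 5 without knockout liver 1 and 5 without knockout liver 3. With scaling by library totals, which shifted the median log2 value over all genes by −0.25, 3 members rose and 4 fell, and the members' median turned to −0.09, which is 0.18 above the median of all genes under that scaling.

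**Figure D1:**
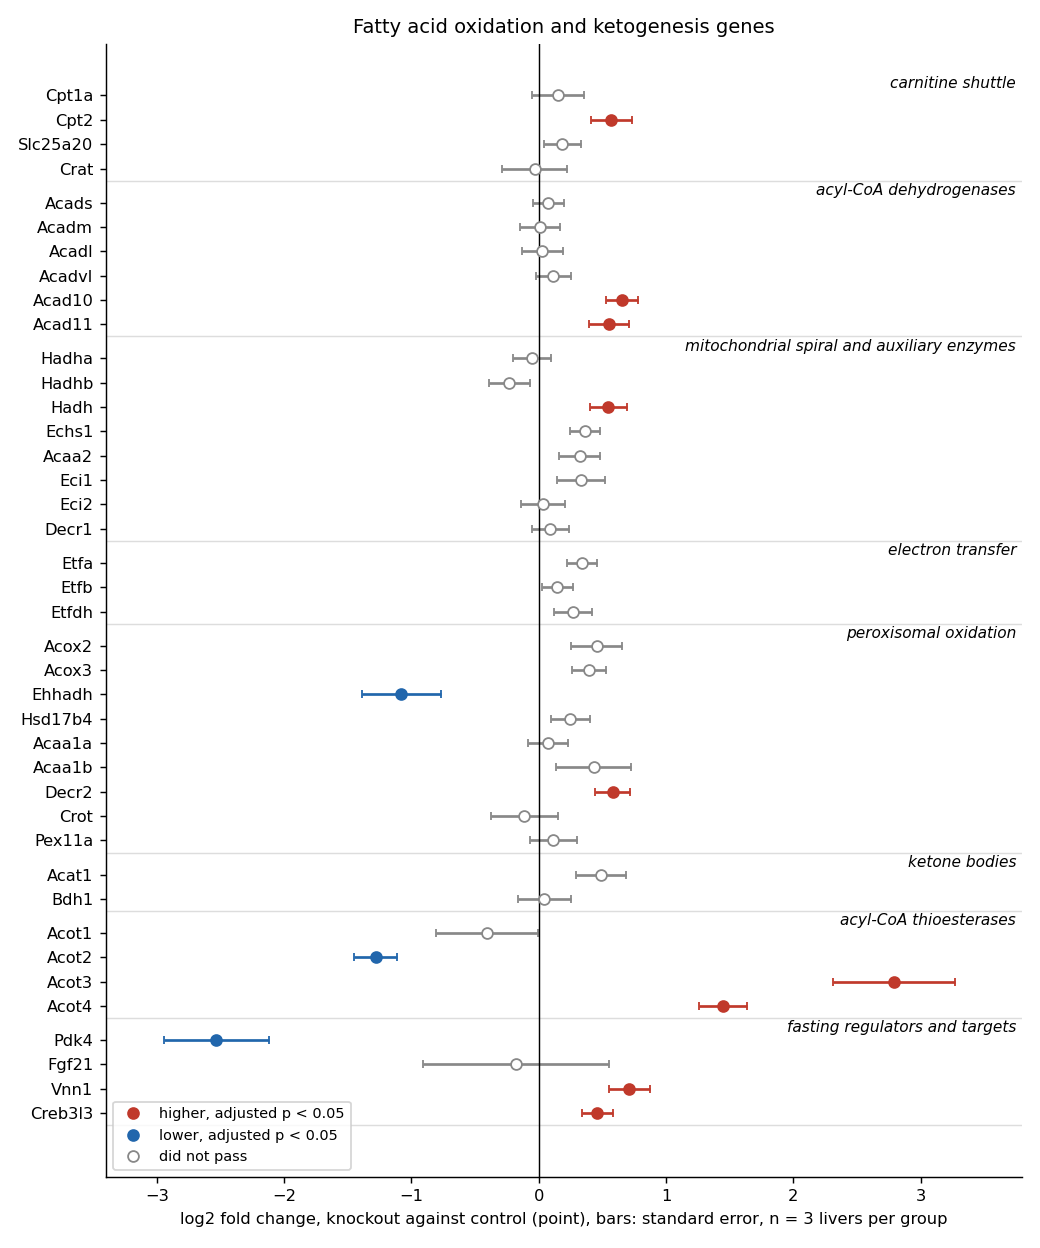
Log2 fold change of each of the 40 genes, knockout against control, grouped by role on the vertical axis, with bars for the standard error and n = 3 livers per group. Filled red and blue points passed the test (9 higher, 3 lower), and open points did not. Acot3 at 2.79 and Pdk4 at −2.53 lie farthest from 0, while the acyl-CoA dehydrogenases Acads, Acadm, Acadl and Acadvl lie between 0.01 and 0.12.

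Library totals ran from 18428224 to 24042917 counts. The least abundant value of any member was 100 counts, for Acot3 in control liver 1, so every member was measured far above the 3 counts taken as the limit of detection. Levels are given as CPM (the counts of a gene relative to all counts of its library), with library sizes scaled by TMM, the edgeR scaling against differences in composition. Log2 values are knockout against control, with the standard error (SE) and n = 3 livers per group. Cd44 itself measured 32.6, 34.8 and 26.4 CPM in control livers and 2.11, 1.92 and 3.01 CPM in knockout livers, the direction the genotype labels give. In whole liver, fewer cells of a type and less RNA per cell cannot be told apart.

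The carnitine shuttle had 1 gene of 4 that rose. Cpt1a, the outer-membrane transferase that sets the rate of entry and is blocked by malonyl-CoA, measured 576, 430 and 709 CPM in control livers and 521, 677 and 704 CPM in knockout livers. The groups overlapped, and the log2 value of 0.15 (SE 0.20, adjusted p = 0.636) was smaller than its error. Cpt2, the inner-membrane transferase that releases acyl-CoA in the matrix, measured 141, 104 and 124 CPM in control livers and 158, 217 and 172 CPM in knockout livers. Every knockout liver lay above every control, a 1.48-fold rise (log2 0.57, SE 0.16, adjusted p = 0.0342) that had an adjusted p between 0.0507 and 0.104 when control liver 2 or 3 or knockout liver 2 or 3 was absent, and 0.133 with library totals. Slc25a20, the carnitine and acylcarnitine carrier between both transferases, had a log2 value of 0.19 (adjusted p = 0.376). Crat, which makes and uses short-chain acylcarnitines, had a log2 value of −0.03 (adjusted p = 0.943) and varied more among knockouts, at 56.3, 110 and 66.9 CPM.

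Of the 6 acyl-CoA dehydrogenases, which carry out the first oxidation of the spiral, Acad10 and Acad11 rose and 4 did not pass. Acads, Acadm, Acadl and Acadvl, named for short, medium, long and very long chains, had log2 values of 0.08, 0.01, 0.03 and 0.12, each below its SE. None of these 4 passed, and their adjusted p ran from 0.583 to 0.973. Acadm, the medium-chain enzyme, measured 552, 392.4 and 452 CPM in control livers and 434, 507 and 464 CPM in knockout livers, with overlapping groups. Acad10, a mitochondrial family member of poorly known substrate, measured 37.5, 38.5 and 42.1 CPM in control livers and 66.3, 53.2 and 66.3 CPM in knockout livers. No control reached the lowest knockout, and the rise of 1.57-fold (log2 0.65, SE 0.13, adjusted p = 0.00773) passed with each liver left out in turn but not with library totals (adjusted p = 0.0629). Acad10 shared 10% of its 100-base transcript stretches with its neighbour in sequence, Acad12. Acad11, another poorly known family member, which acts on long chains, measured 235, 190 and 273 CPM in control livers and 322, 377 and 325 CPM in knockout livers. The groups did not overlap and the rise was 1.47-fold (log2 0.55, SE 0.16, adjusted p = 0.0329). That call was lost when any 1 liver other than control liver 3 was absent (adjusted p from 0.0515 to 0.095), and with library totals (0.132).

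The rest of the mitochondrial spiral had 8 genes, of which Hadh alone rose and 0 fell. Hadh, the short-chain 3-hydroxyacyl-CoA dehydrogenase, measured 289, 209 and 264 CPM in control livers and 353, 387 and 374 CPM in knockout livers. Its groups were well apart, with a 1.46-fold rise (log2 0.55, SE 0.14, adjusted p = 0.0259), although the adjusted p was between 0.0527 and 0.0688 when any 1 liver other than control liver 1 was absent, and 0.131 with library totals. Hadha and Hadhb encode the 2 subunits of the trifunctional protein, which handles long chains at the inner membrane, and they had log2 values of −0.05 (adjusted p = 0.841) and −0.23 (adjusted p = 0.335). Hadhb passed as lower with library totals only (log2 −0.48, adjusted p = 0.0486), and it shared 46% of its 100-base stretches with other genes, nearly all with the annotated gene Gm13910, so its level is uncertain.

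Echs1, the short-chain hydratase, and Acaa2, a thiolase that cleaves the last steps, had groups that did not overlap without passing the test. Echs1 measured 183, 166 and 191 CPM in control livers and 223, 253 and 220 CPM in knockout livers (log2 0.36, adjusted p = 0.0529), and it passed with DESeq2 (adjusted p = 0.0221) and limma-voom (0.0491). Acaa2 measured 590, 550 and 668 CPM in control livers and 671, 908 and 682 CPM in knockout livers (log2 0.32, adjusted p = 0.183). Over all genes tested, the groups did not overlap for 43.8%, 21.4% higher and 22.5% lower, against 16 of the 40 members, 13 higher and 3 lower. The auxiliary enzymes that prepare unsaturated chains, Eci1, Eci2 and Decr1, had log2 values of 0.33, 0.04 and 0.09, and Eci1 passed only when control liver 1 was left out, alone (log2 0.58, adjusted p = 0.0378) or together with knockout liver 2.

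Electrons from the first oxidation pass through the electron transfer flavoprotein (Etfa and Etfb) to its membrane oxidoreductase (Etfdh) and on to the respiratory chain. None of these 3 genes passed, and 3 of 3 had a positive log2 value. Etfa measured 231, 204 and 249 CPM in control livers and 293, 294 and 280 CPM in knockout livers, without overlap (log2 0.34, SE 0.12, adjusted p = 0.0688), and it passed with DESeq2 (adjusted p = 0.0328). Etfb and Etfdh had log2 values of 0.15 and 0.27 with overlapping groups. Etfb shared 47.7% of its 100-base stretches with the annotated gene Gm45233, which had 0 counts in every liver, so its level is uncertain.

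Of the 9 peroxisomal genes, 1 rose and 1 fell, which is 11.1% in each direction and near the shares of all genes tested (11.9% higher and 13.1% lower). Ehhadh, the peroxisomal bifunctional enzyme and a classical PPAR-alpha target, measured 972, 393 and 482 CPM in control livers and 262, 278 and 335 CPM in knockout livers. Control liver 1 was 2.02 times the next control, yet every control lay above every knockout. The fall was 2.11-fold (log2 −1.08, SE 0.31, adjusted p = 0.0365), and its adjusted p was 0.116, 0.0818 and 0.0582 when knockout liver 1, 2 or 3 was absent. Without control liver 1 the log2 value shrank to −0.57 (adjusted p = 0.0476), and with control liver 1 and knockout liver 2 both left out it was −0.55 (adjusted p = 0.068). Per kb of exon, Ehhadh was the third most abundant member in the controls, at 207 ± 105 CPM per kb (SD), and the tenth in the knockouts, at 97.8 ± 12.9. Decr2, the peroxisomal dienoyl-CoA reductase, measured 127, 129 and 163 CPM in control livers and 205, 231 and 190 CPM in knockout livers, a 1.5-fold rise without overlap (log2 0.58, SE 0.14, adjusted p = 0.0186). With control liver 1, control liver 2 or knockout liver 1 absent, its adjusted p became 0.0563, 0.0706 and 0.0558, and 0.0832 with library totals.

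The other 7 peroxisomal genes did not pass. Acox2 and Acox3, oxidases of branched chains and bile acid intermediates, had log2 values of 0.45 (adjusted p = 0.13) and 0.40 (adjusted p = 0.0583). Hsd17b4, the second bifunctional enzyme, had a log2 value of 0.25, and Pex11a, which elongates peroxisomes before they divide, 0.11. Crot, which makes carnitine esters of the shortened chains for export, measured 668, 301 and 448 CPM in control livers and 414, 398 and 498 CPM in knockout livers, and all knockouts lay inside the range of the controls. The thiolases Acaa1a and Acaa1b had log2 values of 0.08 and 0.43. Acaa1b measured 643, 293 and 341 CPM in control livers and 539, 474 and 710 CPM in knockout livers, and without control liver 1 it passed as higher (log2 0.87, adjusted p = 0.0244). These near copies shared 360 of their 100-base stretches, which is 15.8% of those of Acaa1a and 22.6% of those of Acaa1b, so how their reads are divided is uncertain.

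Ketone body production was represented by 2 genes, neither of which passed. Acat1, the mitochondrial thiolase that condenses acetyl-CoA, measured 407, 244 and 289 CPM in control livers and 426, 493 and 398 CPM in knockout livers. Only control liver 1 overlapped the knockouts, so the log2 value of 0.49 (SE 0.20, adjusted p = 0.105) became 0.74 (adjusted p = 0.0204) without that liver. Bdh1, which reduces acetoacetate to beta-hydroxybutyrate, measured 262, 191 and 266 CPM in control livers and 244, 184 and 314 CPM in knockout livers, with ranges that overlapped throughout (log2 0.05, adjusted p = 0.903).

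Of the 4 type I acyl-CoA thioesterases, Acot3 and Acot4 rose, Acot2 fell and Acot1 did not pass. These enzymes release free fatty acids from acyl-CoA, and their genes lie side by side on the plus strand of chromosome 12 (GRCm38), Acot2 at 83987861 to 83993873, Acot1 at 84009490 to 84018371, Acot4 at 84038379 to 84048601 and Acot3 at 84052144 to 84060402. Acot2 encodes the mitochondrial enzyme, Acot1 the cytosolic one, and Acot3 and Acot4 peroxisomal ones. The 250 bases before each RefSeq transcription start (GRCm38.p6, 5′ to 3′ on the gene's own strand) are shown because the 4 neighbours differed in direction. Capitals mark an exact match, on either strand, to the nuclear receptor half-site AGGTCA or to the E-box CACGTG.
Acot2 (chr12:83987611-83987860, plus strand): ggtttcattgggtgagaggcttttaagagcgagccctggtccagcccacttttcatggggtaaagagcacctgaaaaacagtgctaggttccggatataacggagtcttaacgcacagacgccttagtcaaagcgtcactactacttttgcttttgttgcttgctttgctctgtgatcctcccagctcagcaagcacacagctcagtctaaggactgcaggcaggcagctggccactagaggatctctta
Acot1 (chr12:84009252-84009501, plus strand): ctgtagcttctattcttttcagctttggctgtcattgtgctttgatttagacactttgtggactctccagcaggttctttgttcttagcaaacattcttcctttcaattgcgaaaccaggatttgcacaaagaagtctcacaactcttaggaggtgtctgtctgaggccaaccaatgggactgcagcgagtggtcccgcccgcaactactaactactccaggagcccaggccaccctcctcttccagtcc
Acot4 (chr12:84038129-84038378, plus strand): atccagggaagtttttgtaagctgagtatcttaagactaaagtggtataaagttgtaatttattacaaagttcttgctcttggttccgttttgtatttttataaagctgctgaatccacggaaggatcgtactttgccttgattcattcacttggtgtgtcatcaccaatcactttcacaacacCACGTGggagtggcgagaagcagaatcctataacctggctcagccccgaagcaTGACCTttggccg
Acot3 (chr12:84051894-84052143, plus strand): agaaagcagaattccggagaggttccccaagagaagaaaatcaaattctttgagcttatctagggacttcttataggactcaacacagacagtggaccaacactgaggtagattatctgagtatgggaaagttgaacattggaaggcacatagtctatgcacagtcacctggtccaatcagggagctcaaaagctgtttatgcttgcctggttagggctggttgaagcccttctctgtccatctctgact
The E-box of Acot4 began 66 bases before the start and its half-site 13 bases before it. Acot3 also held the half-site, 19 bases after the start that ends the printed stretch, and neither Acot1 nor Acot2 held any of the motifs searched. The half-site is short and was in 16.3% of all windows searched, and its part in the differing directions was not tested.

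Acot3 measured 3.97, 16.2 and 18 CPM in control livers and 64.6, 98.3 and 101 CPM in knockout livers. The highest control was far below the lowest knockout, and the rise was 6.93-fold (log2 2.79, SE 0.48, adjusted p = 0.00495). Acot4 measured 43.6, 63.4 and 74.4 CPM in control livers and 157, 176 and 162 CPM in knockout livers, again without overlap (2.73-fold, log2 1.45, SE 0.19, adjusted p = 0.00161). Acot2, the mitochondrial enzyme, moved the other way, from 138, 134 and 123 CPM to 65.4, 56.1 and 41.1 CPM. Each knockout liver held less Acot2 than any control (2.43-fold lower, log2 −1.28, SE 0.17, adjusted p = 0.00179). All 3 of these genes passed under each of the 16 alternatives run. Acot1, the cytosolic enzyme, measured 65.5, 70.5 and 92.5 CPM in control livers, and at 34.6 and 34.5 CPM in knockout livers 1 and 3. Knockout liver 2 was at 103 CPM, above every control, so over all livers the log2 value was −0.41 (SE 0.40, adjusted p = 0.5), and without that liver −1.14 (adjusted p = 0.00419).

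Per kb of exon, the summed level of the 4 thioesterase genes was 87.1, 93.3 and 96.1 CPM per kb in the controls and 81.0, 107 and 81.2 in the knockouts, so the groups overlapped in the sum while the composition differed. Acot2 took 65.3% ± 6.81 (SD) of that sum in the controls and 27.9% ± 7.69 in the knockouts. The share of Acot3 was 3.95% ± 2.28 against 28.7% ± 6.69, that of Acot4 9.76% ± 2.08 against 27.9% ± 2.87, and that of Acot1 21% ± 3.08 against 15.5% ± 7.99. These shares depend on the length used, the union of all annotated exons. For Acot1 it was 3.92 kb, while its protein-coding transcripts gave 2209 stretches of 100 bases, so its share may be understated. For Acot2 the values were 2.2 kb and 2097 stretches. The 4 genes shared sequence to differing degrees. Acot1 shared 21.6% of its 100-base stretches with other genes, mostly with Acot2, and Acot2 17.1%, all with Acot1. How the reads of Acot1 and Acot2 are divided is therefore uncertain. Acot3 shared 13.8%, mostly with the annotated gene Gm49366, which had 0 counts in every liver, so the exact level of Acot3 is also uncertain. Acot4 shared 0.35%. An antisense gene, 4732463B04Rik, overlaps both Acot3 and Acot4 and stood at 1.3 ± 0.392 CPM in the controls and 4.60 ± 0.531 CPM in the knockouts (SD). No source used here states the strand setting of the counting, so a part of these reads could belong to either strand.

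**Figure D2:**
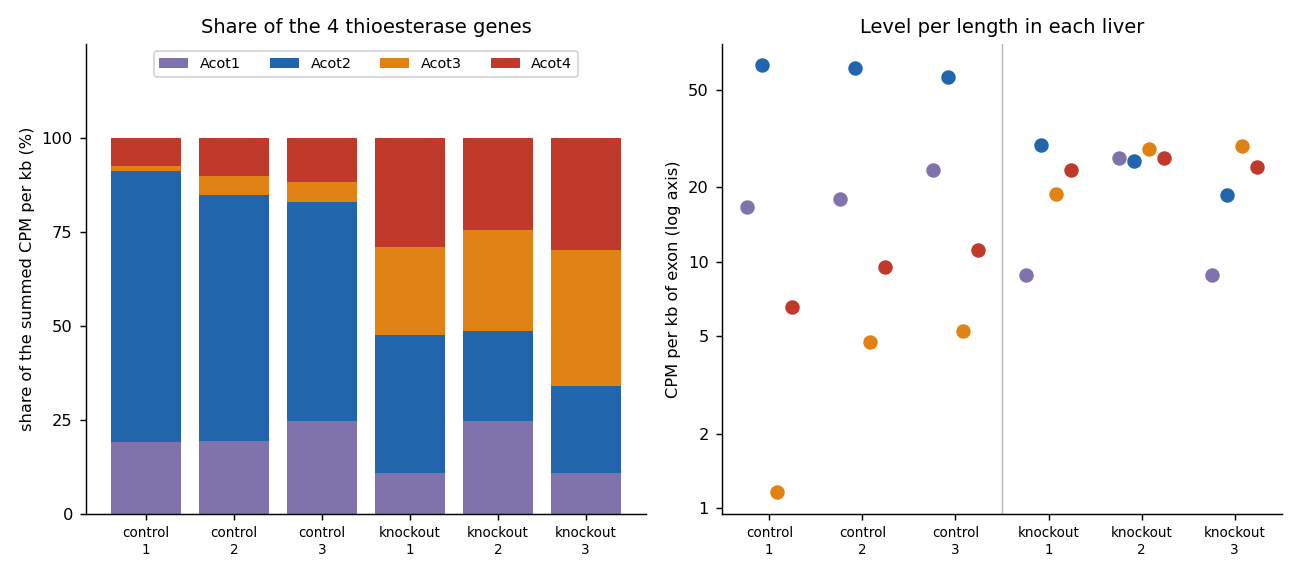
The left panel stacks, for each liver, the share (%) that Acot1, Acot2, Acot3 and Acot4 took of their summed CPM per kb of exon, and the right panel plots each gene's CPM per kb on a log axis. Acot2 leads in every control at 58.4% to 72.0%, while Acot3 and Acot4 together take more than Acot2 in every knockout. In knockout liver 1 Acot2 is still the largest single share, at 36.8%.

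Of the 4 remaining PPAR-alpha and fasting genes, Vnn1 and Creb3l3 rose, Pdk4 fell and Fgf21 did not pass. Pdk4, which spares glucose when fat is burned, measured 131, 45.9 and 43.4 CPM in control livers and 12.7, 11.9 and 13.6 CPM in knockout livers. Control liver 1 was 2.86 times the next control, but the other two controls were still more than any knockout, and the fall was 5.78-fold (log2 −2.53, SE 0.41, adjusted p = 0.00421). Without control liver 1 the log2 value was −1.79, and the gene passed under each of the 16 alternatives. Its upstream sequence is shown because Pdk4 had the largest fall of the 40 genes, and it holds no exact match to any motif searched, so it has no capitals.
Pdk4 (chr6:5496279-5496528, minus strand): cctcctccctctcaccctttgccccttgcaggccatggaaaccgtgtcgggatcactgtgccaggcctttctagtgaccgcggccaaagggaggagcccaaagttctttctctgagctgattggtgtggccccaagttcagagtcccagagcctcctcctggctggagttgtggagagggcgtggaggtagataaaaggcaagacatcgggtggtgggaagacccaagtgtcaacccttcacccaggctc

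Fgf21, the fasting and stress hormone that hepatocytes secrete, measured 99.0, 45.2 and 61.6 CPM in control livers, at 20.2 and 17.9 CPM in knockout livers 1 and 3, and at 144 CPM in knockout liver 2. That liver was 7.14 times the next knockout and above every control. The log2 value was −0.18 (SE 0.73, adjusted p = 0.889) over all livers and −1.84 (adjusted p = 0.00619) without knockout liver 2. Vnn1, the pantetheinase that recycles vitamin B5 and a sensitive PPAR-alpha target, measured 55.0, 41.4 and 53.1 CPM in control livers and 72.2, 97.7 and 75 CPM in knockout livers. All knockouts exceeded all controls, 1.64-fold (log2 0.71, SE 0.16, adjusted p = 0.0151), and without control liver 2 the adjusted p was 0.05. Creb3l3, a membrane-bound liver transcription factor that works with PPAR-alpha on Fgf21, measured 369, 368 and 347 CPM in control livers and 483, 462 and 546 CPM in knockout livers. Its rise was 1.38-fold without overlap (log2 0.46, SE 0.12, adjusted p = 0.0263), but the adjusted p was between 0.0633 and 0.0727 when control liver 2 or 3 or knockout liver 1 or 3 was absent, and 0.267 with library totals.

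**Figure D3:**
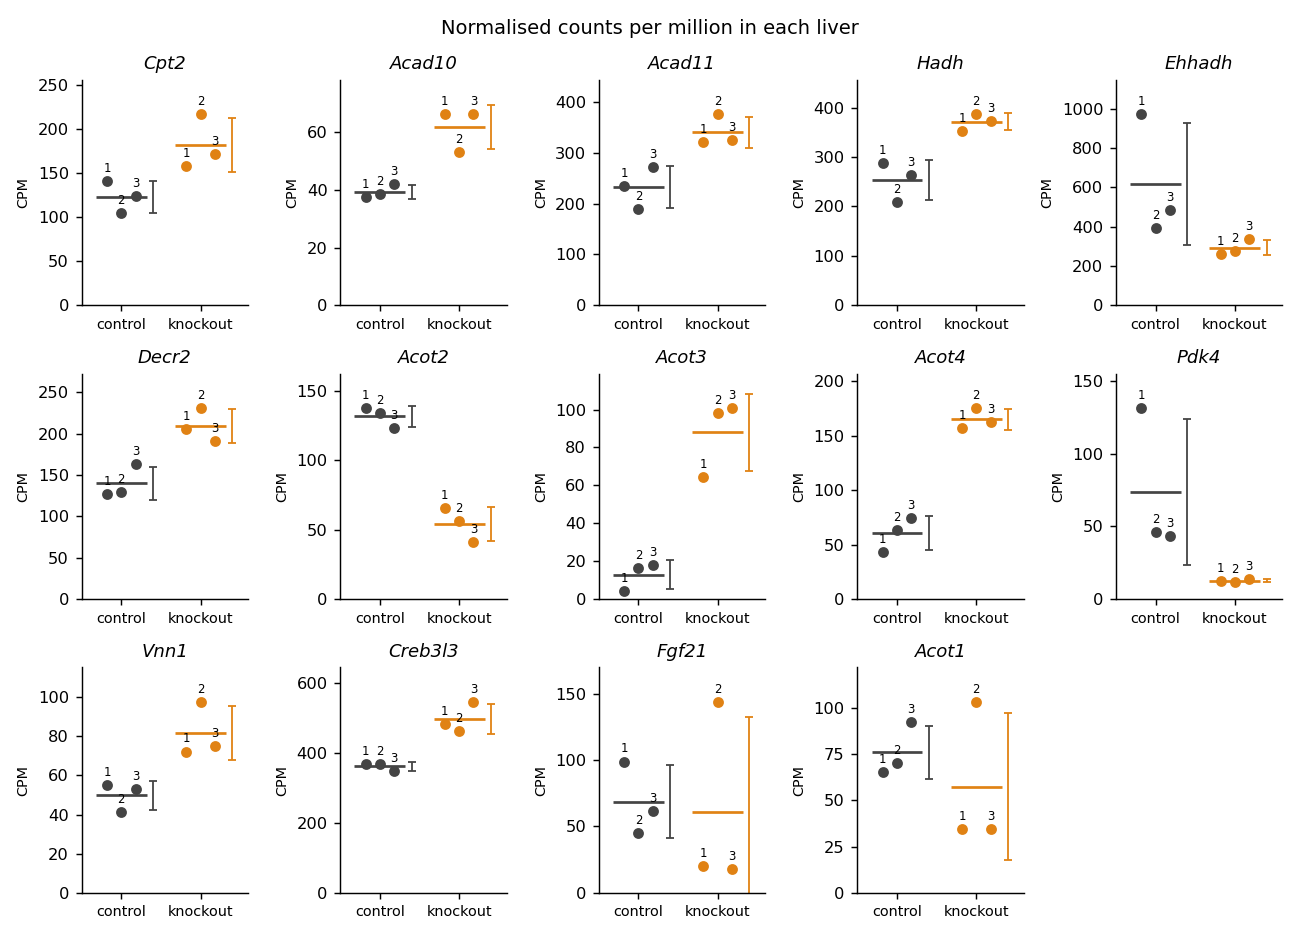
CPM in each liver (points, numbered by mouse) for the 12 genes that passed and for Fgf21 and Acot1, with the group mean as a line and the SD as a bar beside it, n = 3 per group; the SD bar of Fgf21 in the knockouts is clipped at 0. Knockout liver 2 stands alone in Fgf21 (144 CPM) and Acot1 (103 CPM), and control liver 1 in Pdk4 (131 CPM) and Ehhadh (972 CPM).

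The promoter windows of RefSeq (250 bases before to 50 after each start) covered 34 of the 40 genes with 38 windows. The direct repeat of AGGTCA with 1 base of any kind between the copies, the textbook element of PPAR-alpha with its partner RXR, was in 0 of the 38 windows and in 0.0396% of all 32851 windows. The half-site AGGTCA, which each such repeat also contains, was in 8 of the 38 (21.1%) against 16.3% of all windows. The 7 genes that held the half-site were Acadm, Acadvl, Acot3, Acot4, Cpt1a, Creb3l3 and Echs1. Of these Acot3, Acot4 and Creb3l3 rose, beside 22.5% of all members and 11.9% of all genes tested. Whether the half-site goes with the direction of change was not tested. The E-box CACGTG was in 2 windows (5.26% against 7.15%), those of Fgf21 and Acot4, and the FOXO element GTAAACA in 0 (against 3.65%). All motifs were searched on both strands as exact letters, and elements farther from the start lay outside the windows.

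The members did not vary evenly among the livers of a group. Control liver 2 was the lowest of the controls for 28 of the 40 genes and the highest for 0, whereas it was the lowest for 30.9% of all genes tested. The median log2 difference of the members from their 6-liver mean was 0.05, −0.30 and −0.04 in control livers 1, 2 and 3 and 0.01, 0.19 and 0.11 in knockout livers 1, 2 and 3. Knockout liver 1 was the lowest of its group for 23 of the 40 genes, against 29.0% of all genes tested. Knockout liver 2 was the highest of its group for 22 of them (55%), against 37.1% of all genes tested. The median SD of the members' log2 CPM was 0.25 among controls and 0.16 among knockouts. Over the 5205 genes at least as abundant as the least abundant member it was 0.14 and 0.15, and over all genes tested 0.19 and 0.21. Of the 9 rises, 3 passed without control liver 2, and the part of that liver in the others was not tested further.

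**Figure D4:**
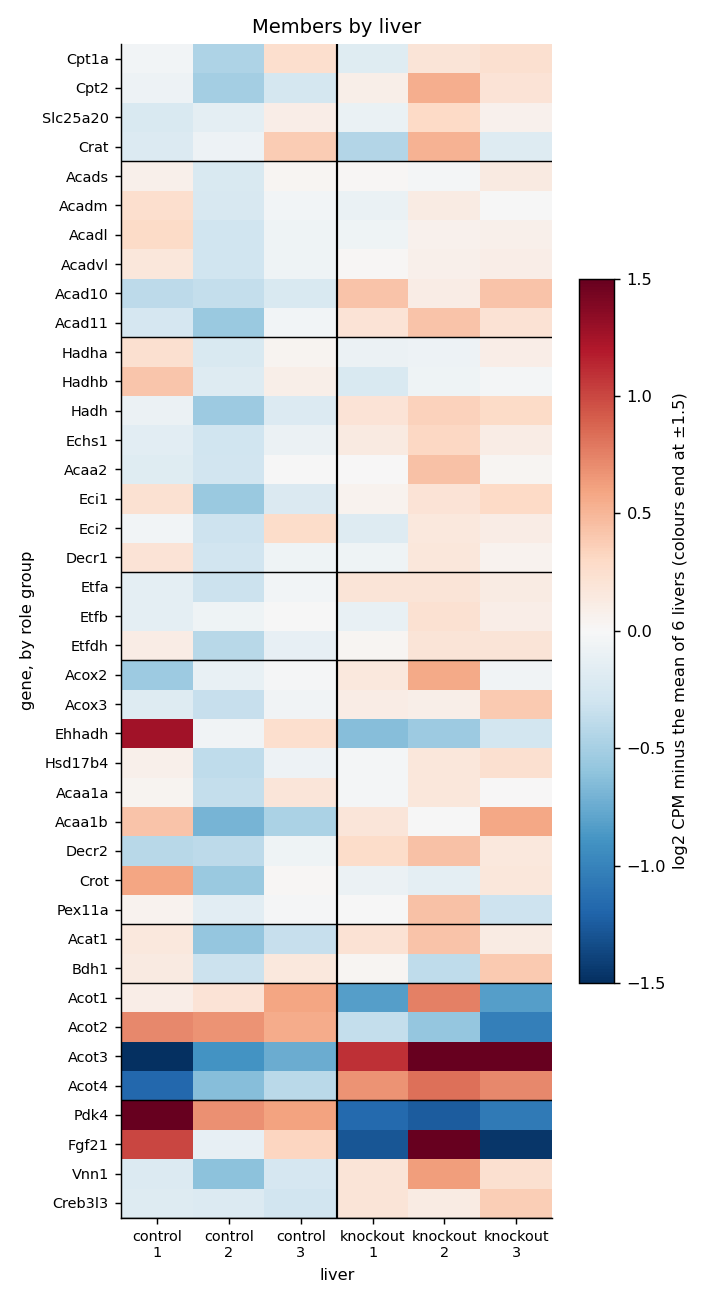
Log2 CPM of each gene minus its mean over the 6 livers, genes in rows by role group (lines between groups) and livers in columns, with colours ending at ±1.5. Control liver 2 is below the mean for most of the enzymes. Acot2, Acot3, Acot4 and Pdk4 are among the 16 genes whose groups do not overlap.

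Other genes of the same pathways were counted from lists chosen by name. Among all genes tested 11.9% rose and 13.1% fell. Of the 5205 genes at least as abundant as the least abundant member, 18.6% rose and 9.13% fell. Of 51 further fatty acid oxidation genes tested, which include the acyl-CoA synthetases, fatty acid transporters and propionyl-CoA enzymes, 23 rose and 3 fell (45.1% higher, median log2 0.47). With library totals 16 rose and 5 fell. Eci3, the close relative of Eci2, rose 8.62-fold from a low level (0.565 ± 0.439 to 4.78 ± 1.34 CPM, SD, adjusted p = 0.00362). The 3 that fell were Acsl4, an arachidonate-preferring synthetase (200 ± 23.5 to 110 ± 18.9 CPM, adjusted p = 0.00604), Acot9, a mitochondrial thioesterase (22.8 ± 5.15 to 8.07 ± 2.88 CPM, adjusted p = 0.00564), and Oxct1, the ketone-using transferase that hepatocytes lack (8.70 ± 0.276 to 4.26 ± 1.11 CPM, adjusted p = 0.00936). These 4 genes were named after their values were seen. Of 43 regulators and other targets of PPAR-alpha tested, 9 rose and 6 fell (20.9% higher, median log2 0.12). Without control liver 2 the number that rose was 5. De novo fatty acid synthesis, the opposing pathway, had 9 of 20 genes higher and 1 lower (45% higher, median log2 0.84). Of 28 nuclear-encoded subunits of the mitochondrial respiratory chain, 5 rose (17.9%) and 0 fell, and 28 of 28 had a positive log2 value (median 0.25). With library totals 0 rose, with 1 liver left out 1 to 3, and with DESeq2 10. None of these lists was tested against the members.

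Markers of cell types moved with the same comparison. Of 11 hepatocyte markers tested 5 rose, with a summed level of 77147 to 92401 CPM in the controls and 104184 to 142143 CPM in the knockouts. Of 14 pericentral hepatocyte markers 11 rose and 0 fell (2918 to 5027 CPM against 11670 to 15655 CPM), and of 14 periportal markers 7 rose and 1 fell (6961 to 8475 CPM against 10092 to 12475 CPM). Of 13 myeloid markers tested 11 fell (671 to 805 CPM against 257 to 460 CPM), and of 10 Kupffer cell markers 8 fell (834 to 901 CPM against 271 to 550 CPM). The part of these shifts in the changes of Acot3, Acot4, Pdk4 and the other members was not tested. Of 8 endothelial markers 0 passed, and of 5 cholangiocyte markers 0 passed, while 3 of 8 stellate markers fell. Among the 10 adipocyte markers Adipoq, Lep and Ucp1 had 0 counts in every liver. Only Car3, which rose, and Fabp4, which fell, passed the filter. The markers summed to 33.9 to 101 CPM in the controls and 395 to 534 CPM in the knockouts, the direction of Car3 and not of Fabp4. The 8 muscle markers summed to at most 1.11 CPM in the controls and 1.28 CPM in the knockouts.

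**Figure D5:**
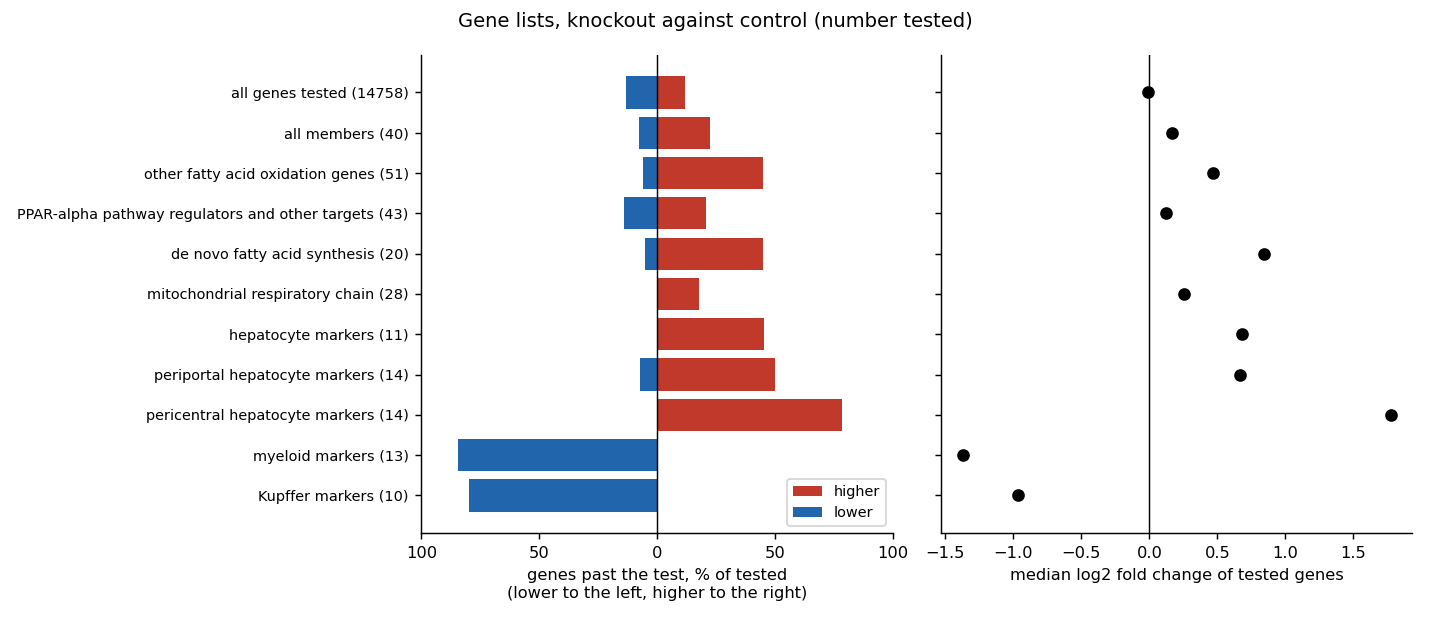
For each list, with the number of genes tested in brackets, the left panel shows the percentage of tested genes that passed as higher (right, red) or lower (left, blue), and the right panel the median log2 fold change, knockout against control. Of the members 9 were higher and 3 lower (of 40), of the other fatty acid oxidation genes 23 and 3 (of 51), and of the pericentral markers 11 and 0 (of 14).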

How the data were processed

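RNA from the livers of 3 control and 3 knockout mice was analysed. The deposited table holds raw counts, whole numbers for each Ensembl gene, with a column for each mouse. Per the submitters' processing notes, the tools were HISAT2 2.0.5, StringTie 1.3.3b and featureCounts 1.5.0-p3, and the build GRCm38.p6, with no roles stated. Strandedness, the handling of multiply mapped reads and the annotation are not given in the sources used here. GENCODE M21 gave symbols, coordinates and exon lengths for 54495 of 54532 genes. The member genes, lists and tests were chosen with earlier results of these data known.

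After filterByExpr and TMM scaling, the 2 groups were compared by the quasi-likelihood test of edgeR 4.0.16 (R 4.3.3), without covariates and with Benjamini-Hochberg adjustment over 14758 genes. The SE is the log2 fold change over the square root of F, and CPM per kb divides by the union of exons. Values in each liver were to be given for Cpt1a, Fgf21, Pdk4, Ehhadh and Acat1 and, per role group, for up to 4 genes that passed or the 1 with the smallest p. Other members with values per liver (such as Crat, Acadm, Acaa2, Acaa1b, Crot and Bdh1) were added after their values were seen. Mmut and the hepatocyte marker Tf were not matched. The 16 alternatives were DESeq2 1.42.0, limma-voom (limma 3.58.1), RLE size factors, library totals, no filter, at least 50 counts in 3 libraries, no 20 most abundant genes, the mouse number as a block, an adjusted p under 0.01, each liver left out, and control liver 1 with knockout liver 2 left out (chosen after seeing the data). The fits were tested on simulated counts. Livers of a group differed beyond sampling noise (chi-square over degrees of freedom 27.2 or more), and the tests set the group difference against the spread between these mice. Shared sequence was sought over transcript stretches of 100 bases. Figures were drawn with matplotlib 3.10.9.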

Additional observations from a re-analysis of the deposited data

How the results depend on the processing

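Of the 12 members that passed, Acad10, Acot2, Acot3, Acot4 and Pdk4 passed with each single liver left out, and Acot2, Acot3, Acot4 and Pdk4 under each of the 16 alternatives. With library totals, 904 of all genes tested were higher and 3698 lower, 3 members were higher and 4 lower, and the members' median was −0.0872. At an adjusted p under 0.01, 724 of all genes were higher and 791 lower, and 3 members were higher. Leaving out 1 liver at a time gave 1086 to 1576 higher and 1183 to 1837 lower of all genes, 3 to 10 members higher and 2 to 4 lower, and a members' median of 0.14 to 0.29. Apart from the settings already named and fewer livers, the cause of these moves was not tested. With the replicate block on mouse number, 6 members were higher and 2 lower: Cpt2, Acad11, Hadh, Ehhadh and Creb3l3 did not pass and Acox3 did (adjusted p = 0.0489). The numbers were not taken to pair the mice, since same-numbered livers did not deviate together (correlations −0.03, 0.04 and −0.02). Every member had at least 100 counts in each liver, so 3 mice per group limit these values more than depth does.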
